A study of Mus musculus with 12 samples.

Results

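Asns, the gene of asparagine synthetase, and 9 other genes of the ATF4 amino acid response were examined in RNA-seq of whole mouse liver. The 10 genes were chosen by name, as ATF4 itself (Atf4), the related factor ATF5 (Atf5) and 8 genes that ATF4 is known to induce (Asns, Ddit3, Chac1, Trib3, Psat1, Phgdh, Sesn2 and Ddit4), out of 48537 gene rows. All 10 had 1 row each. All livers were labelled zeitgeber time 10 (hours from lights on), and they fell into 3 groups of 4. Re-expression livers lacked both REV-ERBs by their label (double knockout, DKO) and were given back wild-type REV-ERBalpha, livers labelled DKO carried the knockout with YFP, and control livers were labelled wildtype and carried YFP. The REV-ERBs are transcriptional repressors of the circadian clock, and their genes are Nr1d1 (alpha) and Nr1d2 (beta). The deposited column names taken for the livers labelled DKO add Cre, and the names of all 3 groups hold YFP. The vector, the promoter that drives Cre, and the age and sex of the animals are not given in the sources used here. An effect of Cre cannot be told apart from that of the knockout by these groups.

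ATF4 is a bZIP transcription factor whose messenger RNA is translated more when the initiation factor eIF2 is phosphorylated, for example by the kinase GCN2 when an amino acid is scarce. It binds C/EBP-ATF composite elements, also called amino acid response elements, as a dimer with C/EBP proteins, and induces genes of amino acid synthesis, amino acid uptake and transfer RNA charging. Because that control acts on translation, the Atf4 transcript and the ATF4 protein need not move together, and the measurements here are of RNA.

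The Asns promoter holds one of the best studied amino acid response elements. In the 300-base promoter windows of RefSeq, which run from 250 bases before to 50 bases after the start of transcription on build GRCm38.p6, all 10 genes had a window and together had 12. The core TGATGNAA was searched on both strands and was found in 3 of the 10 genes, Asns, Chac1 and Trib3. It was present in 3.97% of all 32851 windows. Tars, the threonyl-tRNA synthetase gene described below, also held it. Slc38a2, Slc6a9 and Txnip, which are described below as well, did not hold it in any window searched. The matches of Asns, Chac1, Trib3 and Tars are shown 5′ to 3′ on the gene's strand. Capitals mark the match, which reads TTNCATCA where the core lies on the other strand.
Asns: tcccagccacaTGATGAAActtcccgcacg
Chac1: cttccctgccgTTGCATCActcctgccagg
Trib3: ttagctcaggtTTACATCA
Tars: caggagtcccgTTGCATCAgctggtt
The Asns bases lie at chr6:7693214-7693243 on the minus strand, with the core starting at position -23 from the RefSeq start, inside the longer gene model of GENCODE vM21. The Chac1 bases lie at chr2:119351038-119351067 on the plus strand, with the match at position -193. The Trib3 bases lie at chr2:152344039-152344057 on the minus strand, with the match at position 15 after the RefSeq start. They lie before the start of the shorter GENCODE vM21 gene model, at 152344032. The Tars bases lie at chr15:11399659-11399684 on the minus strand, with the match at position -15 from the RefSeq start, and overlap the GENCODE model of Tars. The E-box CACGTG, which was in 7.15% of all windows, and 2 forms of the REV-ERB and ROR element, AAN followed by TAGGTCA (0.219% of windows) or by TGGGTCA (0.216%), were in no window of the 10 genes. The Tars window held CACGTG, starting at position 20 after the start. A match or its absence in these windows describes only these bases. Binding of ATF4 to the matches and their function were not tested.

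Reads recovered from the deposited values, as described in the section on processing, came to between 5621667 and 6906221 per library, and mitochondrial genes took between 5.71% and 7.38% of a library's TPM, a unit of transcript abundance scaled by gene length and depth. Nr1d1 averaged 191 ± 22.4 TPM in re-expression livers, 82.5 ± 7.39 TPM in livers labelled DKO and 68.7 ± 5.53 TPM in control livers (SD, n = 4 each). Nr1d2 averaged 97.7 ± 15.1, 90.4 ± 7.91 and 96.6 ± 14.9 TPM in the same groups. Nr1d1 rose by 1.20 on the log2(TPM + 1) scale in re-expression livers against livers labelled DKO (limma adjusted p = 0.000452) and was not lower in livers labelled DKO than in control livers; as the deleted exons are not named, whole-gene values are no test of the knockout. Summed TPM of 7 hepatocyte genes with a row, of 8 listed, lay between 48933 and 51615 in re-expression livers, between 47474 and 50645 in livers labelled DKO and between 45237 and 49836 in control livers. In bulk tissue, fewer cells of a type and less RNA per cell cannot be told apart.

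Asns RNA was several-fold lower in livers labelled DKO than in control livers and was also low in re-expression livers. Asparagine synthetase makes asparagine from aspartate and glutamine. On build mm10 Asns lies on the minus strand of chromosome 6 from 7675169 to 7693254. Its level was 7.94, 8.09, 6.18 and 7.52 TPM in re-expression livers, at 6.39, 7.04, 1.89 and 4.07 TPM in livers labelled DKO, and at 40.1, 37.0, 27.6 and 15.9 TPM in control livers. Every control liver was above all 8 others, although the control livers themselves ranged 2.52-fold, and the lowest of them was 1.96-fold above the highest of the other 8. The mean was 4.85 ± 2.35 TPM in livers labelled DKO and 30.1 ± 10.9 TPM in control livers (SD, n = 4), which is 6.22-fold lower in livers labelled DKO. These values rested on 40 to 50 reads per library in re-expression livers, 11 to 42 in livers labelled DKO and 88 to 244 in control livers.

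On the log2(TPM + 1) scale, which understates changes of genes with little RNA, Asns was lower by -2.44 ± 0.33 in livers labelled DKO than in control livers (SE, limma, Benjamini-Hochberg adjusted p = 0.00156, 95% interval -3.17 to -1.71). It had the 29th most negative difference of 17957 tested genes. The call held in all 21 alternative analyses, with adjusted p between 0.00015 and 0.0133. In the first of the authors' numbered comparisons, which the file headers do not name and whose fold changes follow livers labelled DKO against control livers, the authors' deposited table gives Asns a log2 fold change of -2.62 with adjusted p = 1.72e-06.

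Re-expression livers averaged 7.43 ± 0.869 TPM of Asns (SD, n = 4), 4.05-fold lower than control livers. The difference from control livers was -1.81 ± 0.33 (SE, limma, adjusted p = 0.0181). Leaving out 1 library ended this call for control replicate 1 (adjusted p = 0.0532) or 2 (0.053) and for re-expression replicate 3 (0.0561) or 4 (0.054), each just over the threshold of 0.05. Against livers labelled DKO the re-expression livers had 1.53 times the mean level, and the 2 groups overlapped. That difference of 0.63 ± 0.33 was not called (limma adjusted p = 0.914, exact two-sided permutation p = 0.0857), with a 95% interval from -0.0993 to 1.357. The order of the groups was thus control, re-expression and DKO, where the last 2 did not differ beyond their spread.

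**Figure D1:**
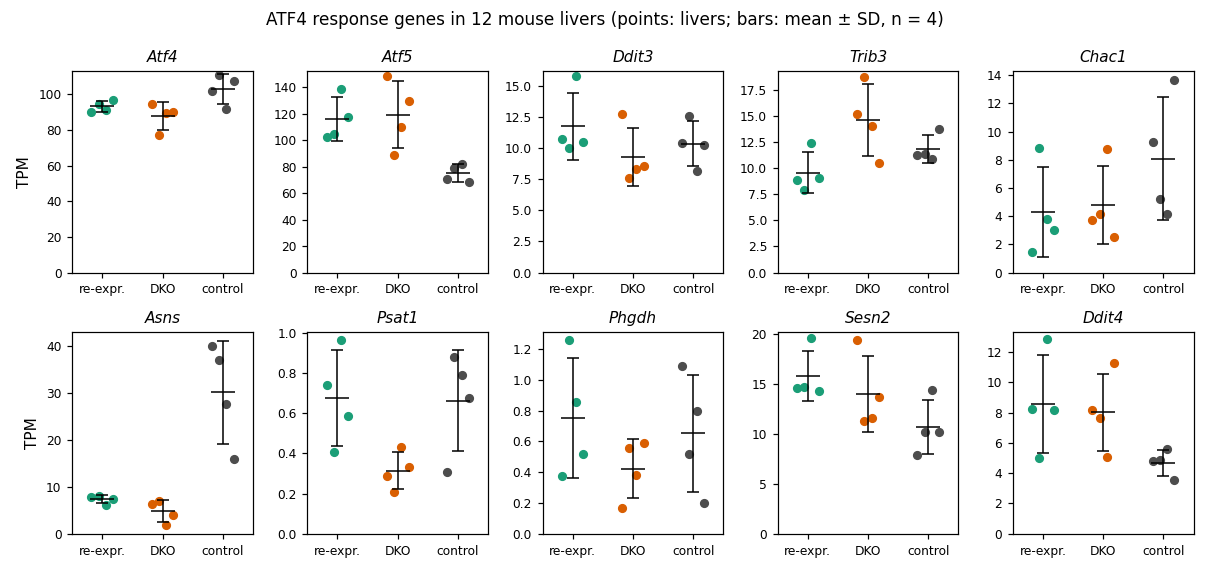
TPM of the 10 genes (vertical axes, each from 0, in TPM) in re-expression livers, livers labelled DKO and control livers; each point is 1 liver and bars give the mean and SD of 4 livers. The 4 control livers stand above the other 8 for Asns, and the control livers stand below the other 8 for Atf5, while the groups overlap for the other genes.

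The transcript of Atf4 itself varied little. Atf4 lies on the plus strand of chromosome 15 from 80255184 to 80257541. Its level was 90.1, 94.5, 91.2 and 96.6 TPM in re-expression livers, at 94.7, 76.8, 89.6 and 89.9 TPM in livers labelled DKO, and at 102, 111, 91.6 and 107 TPM in control livers. Of the livers labelled DKO 3 were below all control livers and 1 was within their range. The difference was -0.23 ± 0.08 (SE, limma, adjusted p = 0.14, 95% interval -0.40 to -0.05), and it passed the threshold in 1 of 21 alternatives, quantile normalization (adjusted p = 0.0498). Re-expression livers differed from livers labelled DKO by 0.09 ± 0.08 and from control livers by -0.14 ± 0.08 (SE, limma, adjusted p = 1 and 0.529).

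Atf5 moved in the direction opposite to Asns. ATF5 is a bZIP factor whose messenger RNA is under a translational control like that of ATF4, and in liver it is abundant. Atf5 lies on the minus strand of chromosome 7 from 44812256 to 44816658. Its level was 102, 105, 139 and 118 TPM in re-expression livers, at 148, 89.1, 110.2 and 129 TPM in livers labelled DKO, and at 71.1, 79.3, 82.3 and 68.1 TPM in control livers. All 8 livers of the first 2 groups were above all 4 control livers. The mean was 1.59-fold higher in livers labelled DKO than in control livers, a rise of 0.64 ± 0.15 (SE, limma, adjusted p = 0.0296). This call was lost in 8 of 21 alternatives: without DKO replicate 1 (adjusted p = 0.0784), 3 (0.0538) or 4 (0.089) or control replicate 1 (0.0765), 2 (0.0543) or 4 (0.0683), with the 8 libraries of the comparison alone (0.0647) and with the replicate number as a block (0.0582). The authors' deposited table gives Atf5 a log2 fold change of 0.67 with adjusted p = 0.00186 in the first numbered comparison. In re-expression livers the difference from control livers was 0.61 ± 0.15, not called (SE, limma, adjusted p = 0.0676, and 0.0236 to 0.168 over the alternatives, 4 of which called it). Re-expression livers and livers labelled DKO overlapped, with a difference of -0.03 ± 0.15 (95% interval -0.35 to 0.30). Atf5 overlaps Nup62 and Il4i1 on the opposite strand, and no source used here gives the strand setting used in counting, so reads of these genes may not have been kept apart.

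Ddit3, the gene of the stress factor CHOP, showed no called difference. Ddit3 stood at 10.8, 10.03, 15.8 and 10.5 TPM in re-expression livers, at 12.7, 7.59, 8.34 and 8.59 TPM in livers labelled DKO, and at 10.5, 12.6, 8.15 and 10.3 TPM in control livers. The 3 groups overlapped, with re-expression replicate 3 the highest of the 12 livers. The difference between livers labelled DKO and control livers was -0.15 ± 0.18 (SE, limma, adjusted p = 0.736, 95% interval -0.55 to 0.25). Ddit3 overlaps Mars, the methionyl-tRNA synthetase gene, which averaged 71.2 TPM on the opposite strand, so the same limit on strand applies to it. It also overlaps Gm4189 on the opposite strand, which averaged 4.48 TPM. On the same strand it overlaps another gene model named Ddit3 that has no values here, so reads shared by these models may not have been kept apart.

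Trib3 and Chac1, whose promoter windows also match the core searched above, had no called difference. The part of these matches in the RNA levels was not tested. Trib3, a pseudokinase gene that ATF4 and CHOP induce, stood at 8.90, 7.89, 12.4 and 9.07 TPM in re-expression livers, at 15.2, 18.8, 14.02 and 10.5 TPM in livers labelled DKO, and at 11.2, 11.3, 10.9 and 13.8 TPM in control livers. The livers labelled DKO were the highest group by mean, and each pair of groups overlapped. The difference from control livers was 0.26 ± 0.17 (SE, limma, adjusted p = 0.462). Re-expression livers differed from livers labelled DKO by -0.55 ± 0.17, which was not called among 17957 genes (SE, limma, adjusted p = 0.452, unadjusted p = 0.00735, exact two-sided permutation p = 0.0571). Chac1, which encodes a glutathione-degrading enzyme, varied more within groups than between them. It stood at 1.49, 8.85, 3.82 and 3.04 TPM in re-expression livers, at 3.76, 4.14, 8.79 and 2.49 TPM in livers labelled DKO, and at 9.27, 5.24, 4.13 and 13.7 TPM in control livers. Its difference between livers labelled DKO and control livers was -0.63 ± 0.46 (SE, limma, adjusted p = 0.518), with a 95% interval from -1.63 to 0.37 that lies above the interval of Asns and includes 0.

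Psat1 and Phgdh, the genes of serine synthesis among the 10, had little RNA in these livers and were below the mean of 1 TPM required for the main test. Psat1 stood between 0.405 and 0.967 TPM in re-expression livers, between 0.21 and 0.43 TPM in livers labelled DKO and between 0.308 and 0.88 TPM in control livers, from 2 to 10 reads per library. Phgdh, the first enzyme of the pathway, stood between 0.375 and 1.26 TPM in re-expression livers, between 0.169 and 0.588 TPM in livers labelled DKO and between 0.20 and 1.09 TPM in control livers, from 1 to 7 reads per library. The groups overlapped for both genes. With no filter on low values, livers labelled DKO minus control livers gave -0.33 ± 0.14 for Psat1 and -0.20 ± 0.20 for Phgdh (SE, limma, adjusted p = 0.344 and 0.74, unadjusted p = 0.0418 and 0.359). Re-expression livers minus livers labelled DKO gave 0.34 ± 0.14 for Psat1 and 0.28 ± 0.20 for Phgdh (adjusted p = 0.914 and 0.973, unadjusted p = 0.0359 and 0.192). None of these differences was called.

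Sesn2 and Ddit4 encode inhibitors of the growth regulator mTORC1, sestrin 2 and REDD1, and both had higher means in the groups with the knockout without passing the test. Ddit4 stood at 8.26, 5.01, 12.8 and 8.17 TPM in re-expression livers, at 8.18, 7.65, 5.04 and 11.2 TPM in livers labelled DKO, and at 4.82, 4.84, 5.58 and 3.53 TPM in control livers. Each knockout group overlapped the control livers through 1 liver. The differences from control livers were 0.70 ± 0.26 in re-expression livers (SE, limma, adjusted p = 0.263, 95% interval 0.13 to 1.27) and 0.63 ± 0.26 in livers labelled DKO (adjusted p = 0.216, 95% interval 0.07 to 1.20). Sesn2, whose product also senses leucine, stood at 14.7, 14.7, 19.6 and 14.3 TPM in re-expression livers, at 19.4, 11.3, 11.6 and 13.7 TPM in livers labelled DKO, and at 7.88, 10.2, 14.4 and 10.2 TPM in control livers. Control replicate 3 reached into the range of the other groups. The differences from control livers were 0.55 ± 0.20 in re-expression livers and 0.36 ± 0.20 in livers labelled DKO (SE, limma, adjusted p = 0.242 and 0.371). Sesn2 overlaps the gene model Gm12981, which averaged 6.50 TPM, on the same strand.

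**Figure D2:**
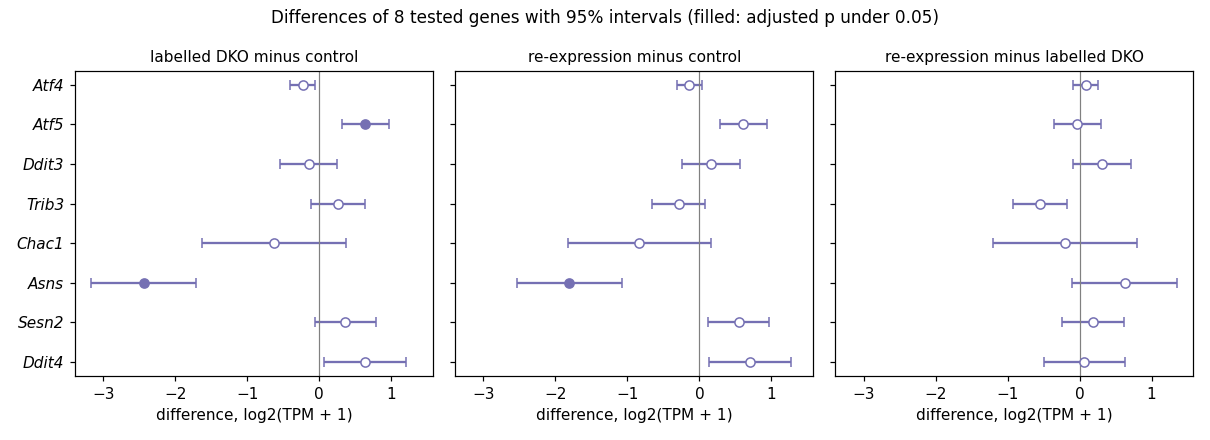
Differences on the log2(TPM + 1) scale (horizontal axes) with 95% intervals for the 8 tested genes in 3 comparisons; filled points had a limma adjusted p under 0.05. Asns has the lowest point in both comparisons with control livers. Its interval lies clear of the other genes for livers labelled DKO, but overlaps that of Chac1 for re-expression livers. No gene is filled in the comparison of re-expression livers with livers labelled DKO.

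Of the 10 genes 8 were tested. Between livers labelled DKO and control livers 1 was called lower (Asns) and 1 higher (Atf5), where 5.33% of all tested genes were called, 2.34% lower and 2.99% higher. The groups did not overlap for these 2 genes, against 11.5% of tested genes. Of the 8 genes 4 had an unadjusted p under 0.05, against 18.4% of tested genes. The median difference of the 8 was 0.06, beside 0.00 over all tested genes. Between re-expression livers and control livers 1 was called lower (Asns) and 0 higher, where 1.82% of tested genes were called, 0.663% lower and 1.16% higher. Here too the groups did not overlap for Asns and Atf5, against 7.28% of tested genes, and 4 of the 8 had an unadjusted p under 0.05, against 12.5%. Between re-expression livers and livers labelled DKO limma called 0 of the 8, where 0.0724% of tested genes were called, 0.0278% higher and 0.0446% lower. The groups overlapped for all 8, while they did not for 4.25% of tested genes, and 1 of the 8 had an unadjusted p under 0.05 (Trib3), against 6.19% of tested genes. These comparisons share livers, so they are not independent of each other.

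Other genes of the response were read from lists of its arms, beginning with its control. Of 10 genes of the eIF2 kinases and of eIF2 phosphorylation 0 were called in limma's test in any comparison, and 3 had an unadjusted p under 0.05 between livers labelled DKO and control livers, where 18.4% of all tested genes had one. Impact, an inhibitor of GCN2 activation, averaged 10.2 ± 1.05 TPM in livers labelled DKO and 13.8 ± 2.98 TPM in control livers (SD, n = 4). Eif2ak4, the gene of GCN2, averaged 7.61 ± 0.248 TPM in livers labelled DKO and 9.08 ± 0.639 TPM in control livers. Ppp1r15b, a phosphatase subunit that reverses eIF2 phosphorylation, averaged 89.4 ± 9.47 TPM in livers labelled DKO and 108.8 ± 11.7 TPM in control livers. For these 3 genes the limma adjusted p was 0.234, 0.212 and 0.139. Of 4 bZIP partners of ATF4 0 were called in limma's test, too few genes to set apart from the 5.33% of all tested genes. Cebpb, the gene of C/EBPbeta, averaged 25.4 ± 6.52 TPM in re-expression livers, 18.5 ± 3.12 TPM in livers labelled DKO and 26.5 ± 2.3 TPM in control livers, with a difference of -0.51 ± 0.16 between livers labelled DKO and control livers (SE, limma, adjusted p = 0.109, and 0.0413 without re-expression replicate 3).

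Amino acid transporter genes of the response held 2 further calls in the direction of Asns between livers labelled DKO and control livers. Of 7 such genes 4 were tested and 2 were called lower in livers labelled DKO than in control livers, with a median of -0.48, where 2.34% of all tested genes were called lower and the median over them was 0.00. Slc38a2, the gene of the neutral amino acid transporter SNAT2, stood at 68.8, 61.5, 66.8 and 56.3 TPM in re-expression livers, at 61.1, 48.2, 57.0 and 65.3 TPM in livers labelled DKO, and at 109, 93.1, 111 and 100.6 TPM in control livers. Every control liver was above all 8 others. Groups did not overlap for 11.5% of tested genes between livers labelled DKO and control livers. For re-expression livers and control livers that share was 7.28%. Against control livers the difference of Slc38a2 was -0.70 ± 0.10 in re-expression livers (SE, limma, adjusted p = 0.00504) and -0.83 ± 0.10 in livers labelled DKO (adjusted p = 0.00078). Both calls held in all 21 alternatives. Between re-expression livers and control livers 0.663% of all tested genes were called lower. Slc6a9, a glycine transporter gene, averaged 18.2 ± 3.37 TPM in re-expression livers, 13.1 ± 1.63 TPM in livers labelled DKO and 21.4 ± 3.49 TPM in control livers (SD, n = 4). It fell by 0.66 in livers labelled DKO against control livers (limma adjusted p = 0.0235). That call was lost with the replicate block (adjusted p = 0.0679), without control replicate 2 (0.0642) or 4 (0.0558) and without DKO replicate 2 (0.0643), 3 (0.0548) or 4 (0.0742). Unlike Asns and Slc38a2, Slc6a9 was not called in re-expression livers against control livers, at -0.22 ± 0.15 (SE, limma, adjusted p = 0.614). Re-expression livers differed from livers labelled DKO by 0.44 ± 0.15, also not called (SE, limma, adjusted p = 0.546). Slc3a2, the heavy chain of several transporters, averaged 30.2 ± 2.4 TPM in livers labelled DKO and 25.7 ± 1.61 TPM in control livers (SD, n = 4, limma adjusted p = 0.132). Slc7a5, the fourth tested transporter gene, differed by -0.31 (limma adjusted p = 0.573). Slc7a11, Slc7a1 and Slc7a3 averaged 0.0124, 0.423 and 0.0694 TPM over all livers and were not tested.

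Of the genes of transfer RNA charging, Tars was called higher in both knockout groups than in control livers. It was the 1 call among 20 cytosolic aminoacyl-tRNA synthetase genes in livers labelled DKO against control livers, where 2.99% of all tested genes were called higher. Of the 20 genes 15 had a difference above 0 and 5 below, with a median of 0.08 beside 0.00 over all tested genes. Tars encodes threonyl-tRNA synthetase, and its promoter window holds the core match shown above. It stood at 59.2, 71.0, 57.0 and 66.6 TPM in re-expression livers, at 77.7, 66.0, 68.2 and 71.0 TPM in livers labelled DKO, and at 47.6, 47.4, 36.3 and 45.7 TPM in control livers. The control livers were below all 8 others. Groups did not overlap for 11.5% of tested genes between livers labelled DKO and control livers. For re-expression livers and control livers that share was 7.28%. Tars was named by its small p among the list's genes, so its separation is not independent of that choice. Against control livers the rise was 0.51 ± 0.10 in re-expression livers (SE, limma, adjusted p = 0.0291) and 0.67 ± 0.10 in livers labelled DKO (adjusted p = 0.00314). Between re-expression livers and control livers 1.16% of all tested genes were called higher. The call of Tars in re-expression livers was lost with the 8 libraries alone (adjusted p = 0.101), without control replicate 3 (0.0516) or 4 (0.0504) and without re-expression replicate 2 (0.0852) or 4 (0.0898). Farsa and Wars averaged 16.8 ± 2.43 and 17.1 ± 1.72 TPM in livers labelled DKO and 13.1 ± 2.23 and 14.0 ± 2.42 TPM in control livers (SD, n = 4, limma adjusted p = 0.173 and 0.263).

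Of 7 genes of serine, one-carbon and proline synthesis other than Psat1 and Phgdh 5 were tested and 0 were called in limma's test. In livers labelled DKO against control livers their differences lay between -0.37 and 0.29, and 0 had an unadjusted p under 0.05. Over all tested genes 5.33% were called and 18.4% had an unadjusted p under 0.05, from which 5 genes are too few to be set apart. Of 12 secreted and other ATF4 target genes 11 were tested and 1 was called lower in livers labelled DKO than in control livers. Over all tested genes 2.34% were called lower. The called gene was Txnip, a regulator of thioredoxin and glucose uptake that also responds strongly to glucose. Txnip stood at 62.9, 39.5, 46.7 and 60.2 TPM in re-expression livers, at 49.4, 58.6, 55.4 and 58.0 TPM in livers labelled DKO, and at 276, 96.1, 165 and 187 TPM in control livers. Every control liver was above the other 8. Groups did not overlap for 11.5% of tested genes between livers labelled DKO and control livers. For re-expression livers and control livers that share was 7.28%. Txnip was named by its small p among the list's genes, so its separation is not independent of that choice. Against control livers the difference of Txnip was -1.70 ± 0.26 in re-expression livers and -1.60 ± 0.26 in livers labelled DKO (SE, limma, adjusted p = 0.006 and 0.00432). Between re-expression livers and control livers 0.663% of all tested genes were called lower. Vldlr, a lipoprotein receptor gene, averaged 2.40 ± 0.571 TPM in re-expression livers, 2.05 ± 0.491 TPM in livers labelled DKO and 1.06 ± 0.407 TPM in control livers, and was called in neither comparison with control livers (limma adjusted p = 0.128 and 0.166), although voom called both (0.0257 and 0.048).

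The other arms of the unfolded protein response and the mTORC1 regulators held 1 call each, Hspa5 and Ddit4l, in different comparisons. Of 12 target genes of XBP1 and ATF6 1 was called higher in livers labelled DKO than in control livers. Over all tested genes 2.99% were called higher. The called gene was the chaperone gene Hspa5, at 461 ± 110.6 TPM against 288 ± 37.6 TPM in control livers (SD, n = 4). Re-expression livers averaged 412 ± 57.2 TPM and were not called against control livers (limma adjusted p = 0.172). All livers of both knockout groups were above all control livers. Groups did not overlap for 11.5% of tested genes between livers labelled DKO and control livers. For re-expression livers and control livers that share was 7.28%. Hspa5 was named by its small p among the list's genes, so its separation is not independent of that choice. The call in livers labelled DKO had a limma adjusted p = 0.0393. It missed the threshold in 12 of 21 alternatives, namely with the 8 libraries alone (0.0866), no filter (0.066) or quantile normalization (0.0545), without DKO replicate 1 (adjusted p = 0.0983) or 4 (0.113), without control replicate 1 (0.107), 3 (0.0979) or 4 (0.0568), without re-expression replicate 1 (0.0501), 2 (0.0571) or 4 (0.0504), and with the replicate block (0.0988). Xbp1 averaged 186 ± 30.7 TPM in livers labelled DKO and 244 ± 29.9 TPM in control livers (limma adjusted p = 0.0925, but 0.0427 without DKO replicate 3 and 0.0409 with voom), and Creld2 averaged 78.6 ± 28.7 TPM in livers labelled DKO and 48.8 ± 9.99 TPM in control livers (adjusted p = 0.252). Of 11 mTORC1 regulators around SESN2 and DDIT4 limma called 0 in the contrast of livers labelled DKO with control livers, where it called 5.33% of all tested genes. An unadjusted p under 0.05 was found for 2 of them, a share close to the 18.4% of all tested genes. Ddit4l, a relative of Ddit4, was called higher in re-expression livers than in control livers, where 1.16% of all tested genes were called higher. It stood at 4.89, 3.02, 3.17 and 2.34 TPM in re-expression livers, at 0.568, 1.41, 1.12 and 1.65 TPM in livers labelled DKO and at 1.38, 1.02, 0.504 and 0.842 TPM in control livers. The re-expression livers were above all 8 others, on 16 to 31 reads each. Re-expression livers did not overlap control livers for 7.28% of tested genes, and livers labelled DKO for 4.25%. The call of Ddit4l (1.16 ± 0.24, SE, limma, adjusted p = 0.0311) missed the threshold without control replicates 2, 3 or 4 (0.0626, 0.0774 and 0.0661) or re-expression replicates 1, 2 or 3 (0.081, 0.0719 and 0.0786), with the 8 libraries alone (0.072) and with the replicate block (0.0921).

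**Figure D3:**
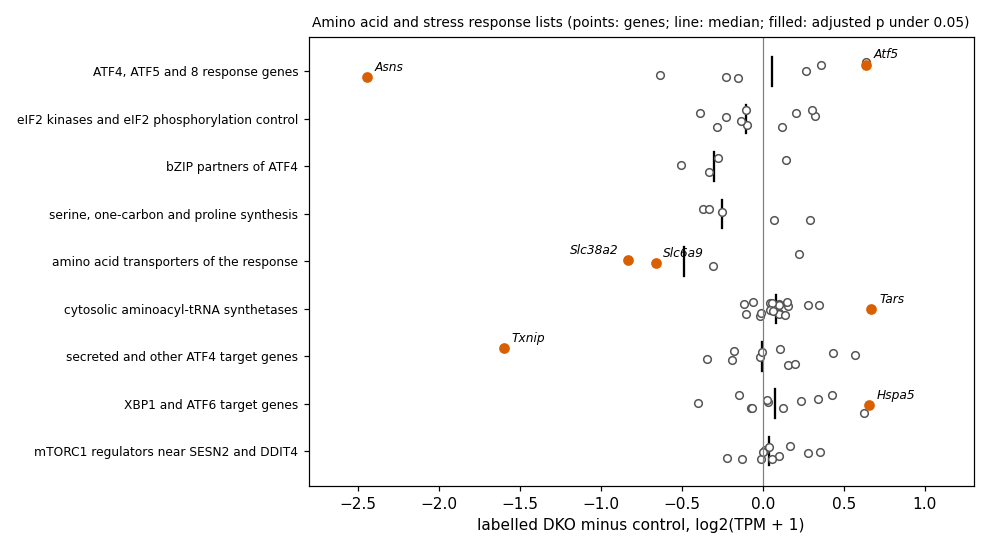
Differences between livers labelled DKO and control livers on the log2(TPM + 1) scale (horizontal axis) for the tested genes of 9 lists; each point is a gene, the line is the list's median, and filled points had a limma adjusted p under 0.05. Asns at -2.44 and Txnip at -1.60 lie far to the left of the other genes, and the filled points lie on both sides of 0.

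**Figure D4:**
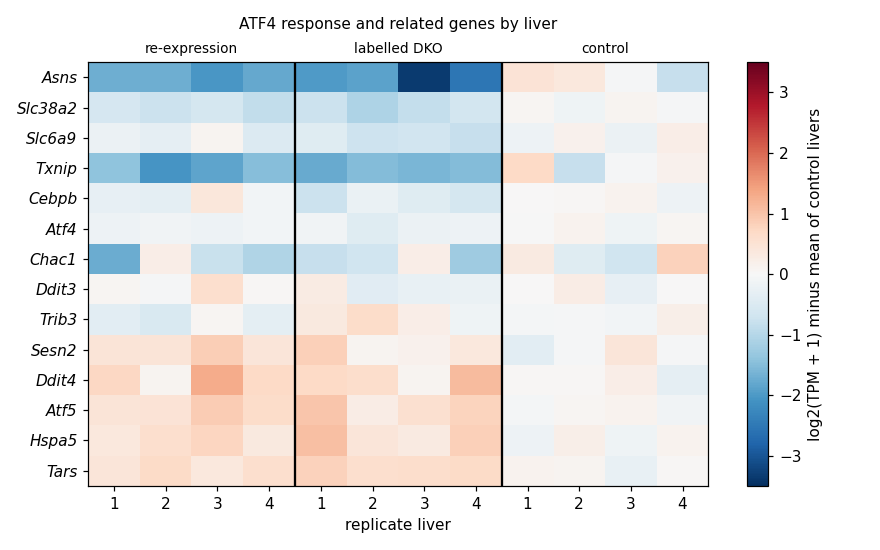
Log2(TPM + 1) of 14 genes minus the mean of the 4 control livers, by liver (columns) and gene (rows), with blue below and red above the control mean. Asns, Atf4, Slc38a2 and Txnip are among the genes blue in all 8 re-expression livers and livers labelled DKO. Atf5, Sesn2, Ddit4 and Tars are among those red in the same 8. For Atf4, Sesn2 and Ddit4 the groups overlapped.

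Genes whose levels followed Asns over the 12 livers were ranked by Pearson's r of log2(TPM + 1) among 9169 named genes with a mean of at least 5 TPM. The 5 highest were Gda, the gene of guanine deaminase (r = 0.96), Nrg4, a growth factor gene (0.95), Txnl4a (0.95), Frg2f1 (0.95) and Stxbp6 (0.94). Nrg4 averaged 5.68 ± 1.07 TPM in re-expression livers, 5.09 ± 1.39 TPM in livers labelled DKO and 15.3 ± 3.06 TPM in control livers (SD, n = 4). The 5 lowest were Oat, the gene of ornithine aminotransferase (-0.94), Mad2l2 (-0.94), Coq8a (-0.93), Trmt9b (-0.93) and Rfxank (-0.93). Coq8a, a gene of coenzyme Q synthesis, averaged 224 ± 30.02 TPM in re-expression livers, 313 ± 19.8 TPM in livers labelled DKO and 105 ± 20.9 TPM in control livers. The 12 livers fall into 3 groups, and a shared group difference enters r. With group means removed, r was 0.82 for Gda, 0.76 for Nrg4, 0.85 for Txnl4a, 0.76 for Frg2f1 and 0.63 for Stxbp6. For the 5 lowest it was -0.69 for Oat, -0.47 for Mad2l2, -0.48 for Coq8a, -0.56 for Trmt9b and -0.65 for Rfxank. These highest and lowest genes were picked by r over the same 12 livers, which also holds the differences within groups. Their r with group means removed is therefore not independent of that choice. Among the 10 genes themselves, r with Asns after removing group means lay between -0.44 (Psat1) and 0.32 (Phgdh), and it was -0.19 for Atf4. These values are descriptions over 12 livers.

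Markers of other liver cells were read in the same groups, where 2.99% of all tested genes were called higher in livers labelled DKO than in control livers, 2.34% lower, and 18.4% had an unadjusted p under 0.05. Stellate cell and fibroblast markers included 3 of 8 called higher in livers labelled DKO than in control livers. All 8 had a higher mean log2 value in livers labelled DKO, and 5 had an unadjusted p under 0.05. Their summed TPM lay between 327 and 371 in livers labelled DKO and between 196 and 312 in control livers. Of 8 Kupffer cell genes 0 were called in limma's test and 0 had an unadjusted p under 0.05, although all 8 had a lower mean log2 value in livers labelled DKO, with sums between 396 and 432 in livers labelled DKO and between 371 and 764 in control livers. Of 8 sinusoidal endothelium genes 0 were called in limma's test, but all 8 had a higher mean log2 value in livers labelled DKO and 4 had an unadjusted p under 0.05, with sums between 270.4 and 330.2 in livers labelled DKO and between 219.9 and 260.2 in control livers. Of 4 tested cholangiocyte genes 1 was called higher (sums 76.7 to 86.1 in livers labelled DKO and 74.5 to 105 in control livers). The 5 markers of red blood cells held 0 calls, but all 5 had an unadjusted p under 0.05 and a higher level (sums 399.9 to 686 in livers labelled DKO and 276 to 382 in control livers). Summed lymphocyte genes lay between 3.71 and 9.29 TPM in livers labelled DKO and between 4.35 and 7.23 TPM in control livers. No marker was at 0 in all livers of a group. Their part in the differences of Asns, Atf5 and the related genes was not tested. Of the 7 hepatocyte genes 2 were called higher and 0 lower in livers labelled DKO, with a median difference of 0.16. An unadjusted p under 0.05 was found for 5 of these 7, 4 higher and 1 lower.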

How the data were processed

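RNA-seq was made from 12 whole livers, 4 per group. The submitters' processing notes name build mm10, DESeq2 1.36.0, featureCounts 2.0.1, SAMtools 1.9, STAR 2.7.1a and bcl2fastq 2.17, with no parameters. The library kit was a strand-specific total RNA kit, per the labels' protocols. The authors deposited TPM values per gene, and log2 fold changes and adjusted p-values of 3 numbered comparisons that the headers do not name. Over 11403 genes the first 2 correlated with livers labelled DKO minus control livers (r = 0.96) and re-expression livers minus livers labelled DKO (r = 0.94). The third matched none of the comparisons here and was not used. Deposited columns were tied to samples by their names; no label mentions Cre, and the columns named YFP with Cre were taken as the livers labelled DKO with YFP, those named YFP with WT as the re-expression livers.

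TPM is not a count, so limma 3.58.1 (R 4.3.3) was fitted to log2(TPM + 1) of the 17957 genes with a mean of at least 1 TPM, as 3 group means (12 libraries, residual df 9, variance trend), two-sided, with Benjamini-Hochberg adjustment over all tested genes and a threshold of 0.05. TPM times the gene length less 199 bases came out as whole reads, at 1 scale per library, for 100% of values above 0, within 0.01 reads, which gave whole reads for depth and for voom. No pair of replicates differed by as little as sampling noise (chi-square per degree of freedom of at least 4.59). The labels call the livers biological replicates. Exact permutation tests used all 70 assignments of 4 against 4, whose smallest p is 0.0286.

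The members, lists and alternatives were chosen with earlier results of these data known. The rule for named genes gave the 10 genes, Nr1d1, Nr1d2, in each pathway list up to 4 genes with the smallest p between livers labelled DKO and control livers and 2 between re-expression livers and livers labelled DKO, and the 5 genes most and least like Asns. Of the list genes only some with an unadjusted p under 0.05 in a comparison or an outlying liver, and Slc7a5 as the remaining tested transporter, are given values, a choice made after their values were seen. Promoter windows are from RefSeq on GRCm38.p6, positions from GENCODE vM21 on mm10. Software was Python 3.11.15 and matplotlib 3.10.9.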

Additional observations from a re-analysis of the deposited data

Results flagged for a closer look

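In 147 sets of 4 livers of 1 group, 12 held a liver far from the other 3, where chance flags about 1 in 20. Of these, 6 were re-expression replicate 3, at 15.8 TPM for Ddit3 (others 10.03 to 10.8), 19.6 for Sesn2 (14.3 to 14.7), 31.4 for Slc3a2 (29.1 to 29.2), 21.6 for Gdf15 (6.48 to 8.17), 407 for Sqstm1 (300.5 to 314) and 117 for Creld2 (60.9 to 70.4). This liver also had the highest re-expression value of 6 of the 10 genes, among them Atf5, Ddit4 and Trib3, and the lowest for Asns. The other flagged livers were control replicate 4 for Trib3 (13.8 TPM, others 10.9 to 11.3), DKO replicate 1 for Cebpg (37.4, others 29.2 to 30.2), re-expression replicate 1 and control replicate 1 for Aldh18a1 (3.10, others 1.27 to 1.54, and 3.01, others 1.43 to 1.54), control replicate 3 for Tars as the lowest (36.3, others 45.7 to 47.6) and control replicate 3 for Wars (17.6, others 12.5 to 13.1). Gdf15 and Sqstm1 are ATF4 or stress target genes of the lists and were called in no comparison.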

How the results depend on the processing

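Of 21 alternatives, 12 left out 1 library each. Asns was called lower in livers labelled DKO than in control livers in all of them. The count of the 10 genes called higher in that comparison (1, Atf5) was 0 with the 8 libraries alone and 0 with the replicate block, and 0 to 1 without 1 library; the count called lower (1) was 2 with quantile normalization, which added Atf4, and stayed 1 whichever library was left out. Between re-expression and control livers the count called higher (0) was 1 with a mean of at least 5 TPM and 1 with voom, and 0 to 1 without 1 library, and the count called lower (1) was 0 to 1 without 1 library. The replicate block changed no call of the 10 genes other than that of Atf5. Same-numbered livers had deviations from their group means that correlated at -0.07 to 0.14 across genes, so the numbers were not taken to pair the livers. None of the 5 genes most like Asns by Pearson's r was among the 5 highest by Spearman's rho (0 shared). Counts over all tested genes moved more: livers labelled DKO against control livers gave 537 higher and 421 lower, with 332 to 524 and 241 to 414 without 1 library and 328 to 643 and 231 to 581 in the other alternatives. Re-expression livers against control livers gave 208 and 119, with 125 to 203 and 50 to 129 without 1 library and 115 to 303 and 47 to 234 in the others, and against livers labelled DKO 5 and 8, with 1 to 7 and 4 to 8, and 3 to 12 and 5 to 22. The differences that changed sign were not called. Between re-expression livers and livers labelled DKO, leaving out 1 library gave -0.159 to 0.084 for Atf5, -0.56 to 0.10 for Chac1, -0.13 to 0.27 for Ddit4, -0.0301 to 0.0728 for Ppp1r15b, -0.0463 to 0.0344 for Slc3a2, -0.1138 to 0.0062 for Farsa, -0.1162 to 0.0458 for Sqstm1, -0.1972 to 0.0226 for Txnip, -0.0956 to 0.0991 for Xbp1, -0.22 to 0.16 for Creld2 and -0.0725 to 0.0754 for Deptor. Quantile normalization gave 0.0062 for Atf5, 0.0399 for Sqstm1 and 0.0195 for Creld2, size factors -0.0067 for Xbp1 and -0.0112 for Deptor, and voom -0.0098 for Xbp1 and -0.015 for Deptor. Against control livers, re-expression livers gave -0.0835 to 0.0855 for Nr1d2, -0.0835 to 0.0087 for Eif2ak4 and -0.23 to 0.14 for Aldh18a1, and livers labelled DKO -0.17 to 0.39 for Gdf15. The cause of these changes was not tested. Reads limit Psat1 and Phgdh, with at most 10 per library.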
